A study of Mus musculus with 6 samples.

Results

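The libraries described here are the 3 of the 6 in the series whose labels give the genotype as WT (WT1, WT2 and WT3). They were made from lung group 2 innate lymphoid cells (ILC2s) of WT mice of the strain given in the labels as CB57BL/6, aged 6 to 8 weeks and matched for sex, with the sex itself not stated. Every mouse had received 0.5 μg of recombinant mouse IL-33 intranasally on 3 days. On day 4, CD45+ lineage- CD127+ ST2+ cells were sorted from the lungs and kept in culture with IL-2 and IL-7 at 10 ng/ml each, for 18 h by one statement of the methods and 24 h by another. From 10 pg of RNA, cDNA was amplified with an ultra-low input kit and sequenced in bulk. There was no unstimulated WT group among the bulk libraries, so the levels are those of activated cells alone, and the SIRPa KO libraries were not set against them.

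ILC2s are tissue-resident lymphocytes that carry no rearranged antigen receptor and respond within hours to alarmins such as IL-33, which is released by damaged epithelium and read by the receptor ST2, the product of Il1rl1. The transcription factor GATA3 maintains their identity and switches on the type 2 cytokines IL-5, which recruits and sustains eosinophils, and IL-13, which acts on airway epithelium and smooth muscle. In the lung they are known as drivers of airway hyperreactivity.

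Between 13980499 and 17287607 reads per library were assigned to genes, and levels are given as CPM, each count divided by that total and scaled to 1000000, with the SD over the libraries (n = 3). At these depths, 3 reads, taken as the floor, equal 0.174 to 0.215 CPM, which covers counting error only. Over the 8697 genes at a mean of 10 CPM or more, Pearson's r of log2(CPM + 1) across genes was 0.962 between WT1 and WT2, 0.928 between WT1 and WT3 and 0.926 between WT2 and WT3. WT3 was the library farthest from the median for 55.5% of these genes. The levels of WT3 followed transcript length. Its median log2 difference from the other two was 0.51 in the 868 shortest and -0.51 in the 868 longest of these transcripts. The labels also give WT1 and WT2 a common code, 37, and WT3 the code 38, so WT1 and WT2 may stem from 1 sample. The submitters' design text also speaks of duplicates, while 3 WT libraries are labelled, so the number of independent samples behind each SD is uncertain. How many mice gave each library is not stated, and the spread may be in part technical. Averaging WT1 and WT2 first, or leaving out WT3, moved the level of Il5 and the percentile of the ILC2 markers by less than the spread of the libraries, and the counts of detected genes and of marker genes by less than 1.5 times. Among the genes named by rule with a mean of at least 10 CPM, Il9, Lyz2, Cma1, H2-Eb1, Gzmb and Hopx were, without WT3, lower by over 1.5 times, as given where each appears.

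Of 17831 genes in the table, 11557 (64.8%) had at least 1 CPM in each library. A mean of 10 CPM or more was reached by 8697 genes (48.8%), 100 CPM by 2368 (13.3%) and 1000 CPM by 91. The 50 most abundant genes took 14.01% ± 0.983 of the reads and the 1000 most abundant took 53.3% ± 2.25. At the other end, 889 genes had at most 3 reads in every library and 424 of these were at 0.

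Il5 was the third most abundant transcript of the whole profile. Only Ftl1, the ferritin light chain that stores iron (11316 ± 1699 CPM), and Tmsb4x, the actin-sequestering thymosin beta 4 (9229 ± 2277 CPM), had higher means, and the ranges of both overlapped that of Il5. Per kb of transcript Il5 also ranked 3. Il5 stood at 9769, 8498 and 9296 CPM in WT1, WT2 and WT3, a mean of 9188 ± 642. The remaining genes among the first 10 were the MHC class I heavy chain H2-D1 (5276 ± 410 CPM), gamma-actin Actg1 (5069 ± 595), the glycolytic enolase Eno1 (4498 ± 303), the ferritin heavy chain Fth1 (4086 ± 570), the pyruvate kinase Pkm (3905 ± 277), cyclophilin A Ppia (3856 ± 659) and polyubiquitin Ubb (3801 ± 475). Ranks 11 to 25 held 3 further glycolytic genes, Gapdh, Ldha and Aldoa, at 3535 ± 728, 3362 ± 225 and 2811 ± 360 CPM. They also held the proprotein convertase Furin (3348 ± 870), the oxidase Ero1l that drives disulfide formation in the endoplasmic reticulum (2555 ± 518), the chaperones Hspa8 (3225 ± 142) and Hsp90ab1 (2724 ± 34.8), B2m and H2-K1 of MHC class I (2539 ± 173 and 2365 ± 256) and the translation factors Eef1a1 and Eif5a (2397 ± 656 and 2303 ± 255). Pfn1, Itm2b, Tuba1b and Actb completed the first 25, between 2087 and 2743 CPM. Among the first 100 genes, 3 of the 6 ILC2 markers were present (Il5, Il2ra and Gata3), beside 5 genes of glucose uptake and glycolysis and 4 of the 82 cytosolic ribosomal proteins. Ftl1, Actg1, Hspa8 and Tuba1b have near-identical copies elsewhere in the genome that also carried reads, 745, 272, 209 and 1688 CPM in sum, so their levels are uncertain by about those amounts.

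**Figure D1:**
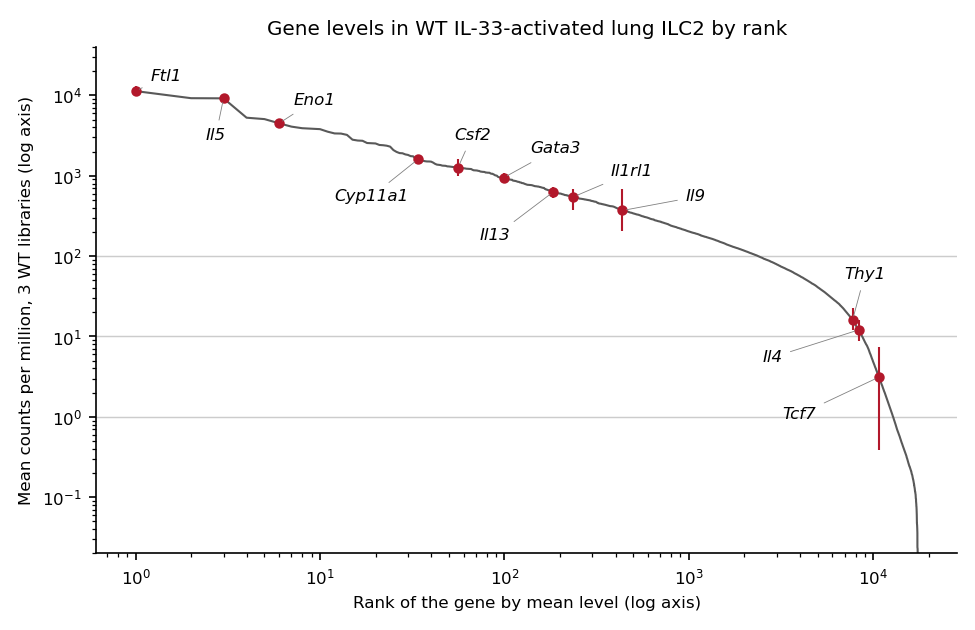
Mean level in CPM against rank, both on log axes, for the genes of the 3 WT libraries; red points mark named genes with bars from the lowest to the highest library, and grey lines mark 1, 10 and 100 CPM. Il5 stands at rank 3 and Cyp11a1 at rank 34, while Il4 and Thy1 lie on the steep right-hand part of the curve, with means of 12.1 and 16.0 CPM.

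The labelled cell type was carried by its markers in every library. All 6 ILC2 markers passed 100 CPM, and their median level per kb of transcript stood at the 98.8th percentile of all genes. Beside Il5, Il2ra, the high-affinity IL-2 receptor chain, stood at 2077, 2066 and 1387 CPM, and Gata3 at 1084, 920 and 835 CPM. Il13 had 626, 530 and 734 CPM, and Il1rl1 had 575, 690 and 371. WT3 was the lowest library for Il2ra, Gata3 and Il1rl1 and the highest for Il13. Il1rl1 and Il2ra have long transcripts, and both were lowest in WT3, the library low for long transcripts, and the part of length in their spread was not tested. Of 28 further ILC2 genes, 26 were columns of the table and every one of these had a mean of 10 CPM or more, where 48.8% of all genes did. The highest per kb were the stem cell antigen Ly6a, at 1089 ± 239 CPM, the chemokine receptor Cxcr6, at 1337 ± 262, and the inhibitor of DNA binding Id2, at 1268 ± 125. Thy1, a surface marker often used to gate ILC2s, was the lowest of the list in CPM (16.0 ± 5.83), and Il7r, which encodes the CD127 used in the sort, stood at 68.2 ± 14.4 CPM. The IL-25 receptor chain Il17rb (22.7 ± 4.78 CPM), the TSLP receptor chain Crlf2 (22.99 ± 5.91) and Il18r1 (17.3 ± 3.36) were also low. Ptprc, which encodes the CD45 of the gate, had 347 ± 122 CPM. Ptgdr2 and Zbtb16 are not columns of the table analysed here.

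Il4, Il13 and Il5, neighbouring genes on chromosome 11, differed widely in level. In mm10, Il4 lies at chr11:53602982-53618669 and Il13 at chr11:53631324-53634702, both on the minus strand, and Il5 lies at chr11:53720794-53725106 on the plus strand, with Rad50 between Il13 and Il5. The 250 bases before each start, in RefSeq's annotation of GRCm38.p6, are shown because they are the proximal sequence of genes of 1 cluster whose levels differ widely, from the third most abundant transcript to 12.1 CPM for Il4, above the median of 8.98 CPM over all genes. Capitals mark GATA or its reverse complement TATC, the core of the letters bound by GATA factors, and TATAAA or TTTATA, 1 form of the TATA box.
Il5, chr11:53720544-53720793, plus strand: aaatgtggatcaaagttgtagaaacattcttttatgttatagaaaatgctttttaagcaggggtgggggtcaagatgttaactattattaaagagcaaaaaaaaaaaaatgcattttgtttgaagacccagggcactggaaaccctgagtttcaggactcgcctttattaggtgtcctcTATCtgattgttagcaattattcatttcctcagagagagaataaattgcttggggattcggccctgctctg
Il13, chr11:53634703-53634952, minus strand: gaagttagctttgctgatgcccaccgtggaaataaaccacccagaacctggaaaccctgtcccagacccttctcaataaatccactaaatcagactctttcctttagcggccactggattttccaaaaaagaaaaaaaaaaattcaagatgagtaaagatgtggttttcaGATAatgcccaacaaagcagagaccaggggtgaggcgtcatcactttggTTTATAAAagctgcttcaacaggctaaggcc
Il4, chr11:53618666-53618915, minus strand: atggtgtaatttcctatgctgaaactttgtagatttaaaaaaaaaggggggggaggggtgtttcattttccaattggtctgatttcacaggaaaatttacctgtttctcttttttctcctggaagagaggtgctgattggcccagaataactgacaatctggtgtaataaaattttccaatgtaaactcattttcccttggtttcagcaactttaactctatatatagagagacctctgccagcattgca
The Il5 and Il13 windows each held 1 match to GATA in either orientation and the Il4 window held 0. Such a match was present in 53.6% of all 32851 RefSeq windows of this length, so its presence sets neither gene apart. In the Il13 window TATAAA and TTTATA overlapped in 1 run of letters that ends near the start. A match to either was found in 12.4% of windows and in neither the Il5 nor the Il4 window. Other forms of the TATA box were not searched for, such as the letters tatatata near the end of the Il4 window, so these counts do not tell whether a gene lacks one.

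Per kb of the longest annotated transcript, Il5 reached 5978 ± 418 CPM per kb, Il13 523 ± 84.5 and Il4 19.9 ± 5.79. Their ranges over the libraries did not overlap. The level of Il5 per kb was 11.5 times that of Il13 (log2 ratio 3.53 ± 0.19), and that of Il13 was 26.7 times that of Il4 (4.74 ± 0.18). Each ratio was of similar size in every library, 9.93 to 12.6 for the first and 23.3 to 30.01 for the second. Csf2, which encodes GM-CSF, lies 529 kb from Il5 at chr11:54247271-54249667 and was the other high cytokine of the region, at 1580 ± 383 CPM per kb. It stood between Il5 and Il13, and Il5 exceeded it by 3.85 times (log2 ratio 1.94 ± 0.37). Within 1000 kb of the Il5 start the table holds 25 protein-coding genes. Il5 took 71.0% of their summed CPM, and only Il5 and Csf2 passed 1000 CPM. Of the other genes there, the chaperone gene Hspa4 had 517 ± 148 CPM, the respiratory chain gene Uqcrq 269.6 ± 81.4 and Aff4 189 ± 45.5. Rad50, a DNA repair gene between Il13 and Il5, stood at 121 ± 14.5 CPM, the interferon regulatory factor Irf1 at 73.8 ± 12.1, Kif3a at 34.1 ± 6.27 and the carnitine transporter Slc22a5 at 16.3 ± 4.45. Shroom1 was at 0 in every library. An antisense gene, Gm12214, overlaps Il5 and was listed at 13.2 ± 5.04 CPM. Whether strand was used in counting is not stated, so its reads cannot be told from those of Il5.

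**Figure D2:**
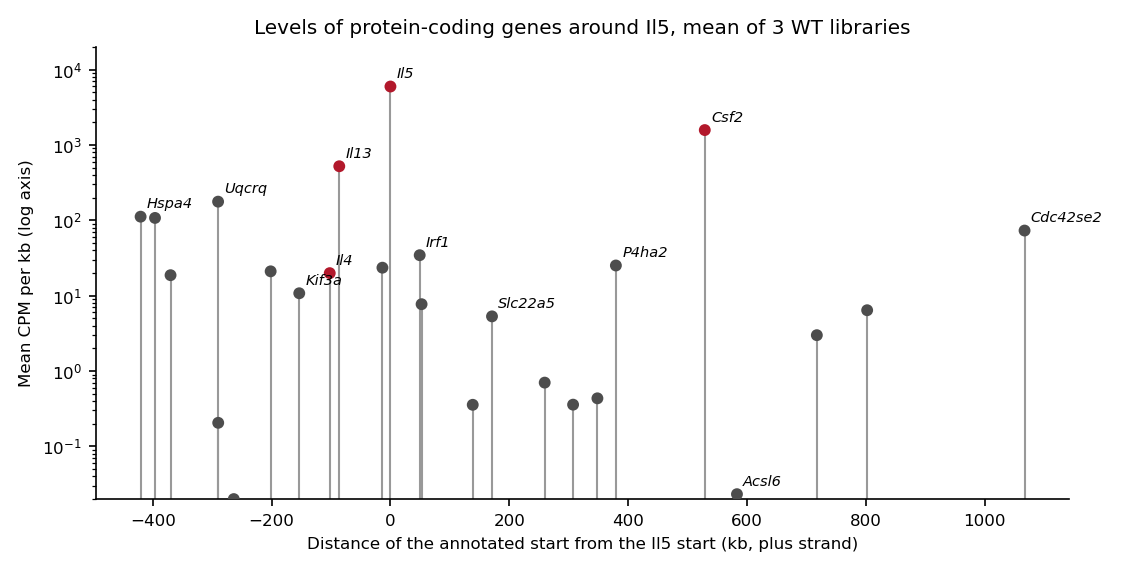
Mean level in CPM per kb of transcript (log axis) of the protein-coding genes around Il5, placed by the distance of their annotated start from the Il5 start in kb along the plus strand; type 2 cytokine genes and Csf2 are red. Il5, Csf2 and Il13 stand above every other gene drawn, at 5978, 1580 and 523 CPM per kb, and Il4 lies among the neighbouring genes at 19.9.

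Of 28 interleukins listed, Il5 and Il13 included, 18 were columns of the table, 7 had a mean of at least 10 CPM and 3 passed 100, levels reached by 48.8% and 13.3% of all genes. The third was Il9, a growth factor for ILC2s and mast cells, with 203, 222 and 683 CPM. WT3 stood far above the other two, and the mean of 369.5 ± 272 CPM for Il9 became 213 without it. Below these were Ebi3, a shared subunit of IL-27 and IL-35 (45.5 ± 10.9 CPM), Il16 (70.5 ± 10.97), Il4 (12.1 ± 3.51) and Il6 (10.2 ± 1.66). Il22, Il7 and Il33 had at most 3 reads in every library, a limit of 0.215 CPM. Il3, Il17a, Il17f, Il21 and Il25 were among the 10 listed genes that are not columns of the table.

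Among other cytokines, Csf2 stood at 1005, 1185 and 1602 CPM, and was followed per kb by Mif, Lta, Tgfb1 and the OX40 ligand Tnfsf4, with no overlap of ranges between successive members. Mif, a macrophage migration inhibitory factor, had 399 ± 115 CPM, lymphotoxin alpha Lta 353 ± 70.9, Tgfb1 363 ± 30.4 and Tnfsf4 124 ± 26.8. Oncostatin M, Osm, was at 119 ± 16.5 CPM and Tnf at 43.4 ± 5.68. Ifng had 0.230 CPM, and Csf3 and Cd40lg were at 0. Of the 27 chemokines, 20 were columns of the table and 5 had a mean of at least 10 CPM, against 48.8% of all genes. Cxcl3, a neutrophil chemoattractant, was far above the others with 598, 817 and 901 CPM, 7.16 times the per kb level of the next, Ccl6, at 44.4 ± 18.9 CPM. Cxcl2, a close relative of Cxcl3, had 14.7 ± 5.78 CPM. The eosinophil chemoattractant Ccl11 is not a column of the table.

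Secreted products of other kinds were led by the galectins Lgals1 (1980 ± 460 CPM) and Lgals3 (519 ± 85.5) and by the chitinase-like protein Chil3 (527 ± 201). The epidermal growth factor family member Areg, through which ILC2s take part in tissue repair, stood at 47.4, 65.0 and 86.2 CPM. Calca, which encodes the neuropeptide CGRP, had 41.0 ± 4.66 CPM and the proenkephalin gene Penk 38.2. Retnla, an alternative activation product, was at 48.5, 43.6 and 3.59 CPM, so WT3 was far below the others, with a mean of 31.9 and an SD of 24.7. Tph1, the rate-limiting enzyme of peripheral serotonin synthesis, was at 232 ± 30.3 CPM. Of genes of cytotoxic granules, Gzmb stood at 14.5 ± 9.56 (9.13 without WT3), Gzma at 7.53 ± 1.97 and Prf1 at 0.926, 1.72 and 5.88 in WT1, WT2 and WT3.

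The chains of the IL-2 receptor led the list of cytokine receptors outside the IL-1 family. The common gamma chain Il2rg had 1549, 1314 and 1214 CPM and Il2rb, the signalling beta chain, had 639, 572 and 453. Per kb the order was Il2rg (814 ± 103), Il2ra (418 ± 89.5), Il2rb (132 ± 22.4) and Il12rb1 (119 ± 5.10), with an overlap of ranges only between the last 2. With the median in place of the longest transcript length, Il2ra came before Il2rg, at a ratio of Il2rg to Il2ra of 0.782 in place of 1.97. Il2ra exceeded Il7r, the receptor chain for the other cytokine of the culture, by 21.7 times per kb (log2 ratio 4.44 ± 0.10), or 67.5 times with the median transcript length. The IL-4 receptor chain Il4ra stood at 450 ± 85.4 CPM and Il10ra at 229 ± 49.8. Il6st, the signal chain shared by the IL-6 family, was at 11.9 CPM. Il6ra stood at 1.39, 0.358 and 0.523 CPM in WT1, WT2 and WT3, a mean of 0.756. The eosinophil and neutrophil growth factor receptors Il5ra and Csf3r had 25, 26 and 0 reads and 0, 1 and 0 reads in WT1, WT2 and WT3.

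Of the 14 alarmin and IL-1 family receptors, 9 had a mean of at least 10 CPM, against 48.8% of all genes. Per kb the decoy receptor Il1r2, which binds IL-1 without signalling, stood first at 178 ± 10.7, and Il1rl1 at 103 ± 30.5, a ratio of 1.78 that fell to 1.399 with the median transcript length. Next came Sigirr, an inhibitory member of the family (76.1 ± 5.34), whose range overlapped that of Il1rl1, the adaptor Myd88 (56.4 ± 6.28) and Il18rap (26.6 ± 4.06). Il1rl1 exceeded Crlf2 by 6.21 times per kb (log2 ratio 2.63 ± 0.80) and Il17rb by 11.4 times (3.52 ± 0.41). With the median transcript length these ratios were 11.7 and 18.03. The shared accessory chain Il1rap, which ST2 needs to signal, was low at 1.64 CPM per kb. Il1r1 was at 0 in every library and Il17rc at the floor.

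Receptors for neuropeptides, lipids and nutrients were led by Ltb4r1, the high-affinity receptor of leukotriene B4, at 419, 449 and 594 CPM. Its per kb level was 14.03 times that of the cysteinyl leukotriene receptor Cysltr1 (log2 ratio 3.81 ± 0.50), or 8.46 times with the median transcript length. Ptgir, a prostacyclin receptor, had 189 ± 17.5 CPM, and Ramp1, a subunit of the CGRP receptor, 141 ± 12.6. Nmur1, the receptor of neuromedin U, stood at 79.9, 77.0 and 67.9 CPM. Vipr2, a receptor of vasoactive intestinal peptide, had 40.9 ± 13.7 CPM. Among chemokine receptors Cxcr6 (1509, 1467 and 1035 CPM) was followed per kb by Ccr8 (110 ± 11.5), Ccr2 (33.7 ± 5.30) and Ccr4 (33.5 ± 7.96), the ranges of the last 2 overlapping. Cxcr3, a receptor of type 1 lymphocytes, had 1.75 ± 0.531 CPM. Of 45 costimulatory, checkpoint and TNF receptors, 25 had a mean of at least 10 CPM, a share near the 48.8% of all genes. Cd52 (683 ± 130 CPM), GITR gene Tnfrsf18 (313 ± 35.9), the PD-1 gene Pdcd1 (418 ± 9.26), the DR3 gene Tnfrsf25 (198 ± 6.95) and Icos (263 ± 34.3) led it per kb in that order, with no overlap of ranges between neighbours. Pdcd1 was steady, at 410, 428 and 417 CPM. Ctla4 was at 0.946 CPM, Btla and Tnfrsf14 were at the floor and Cd86 was at 0. Cd47, the ligand of SIRPα, stood at 393 ± 47.3 CPM and Sirpa itself at 8.62, 6.87 and 4.77 CPM. The integrin list was led by Itgb7 (520 ± 54.8 CPM), Itgb2 (402 ± 61.1) and Itgal (290 ± 25.2), and Itga1 was at 0.

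**Figure D3:**
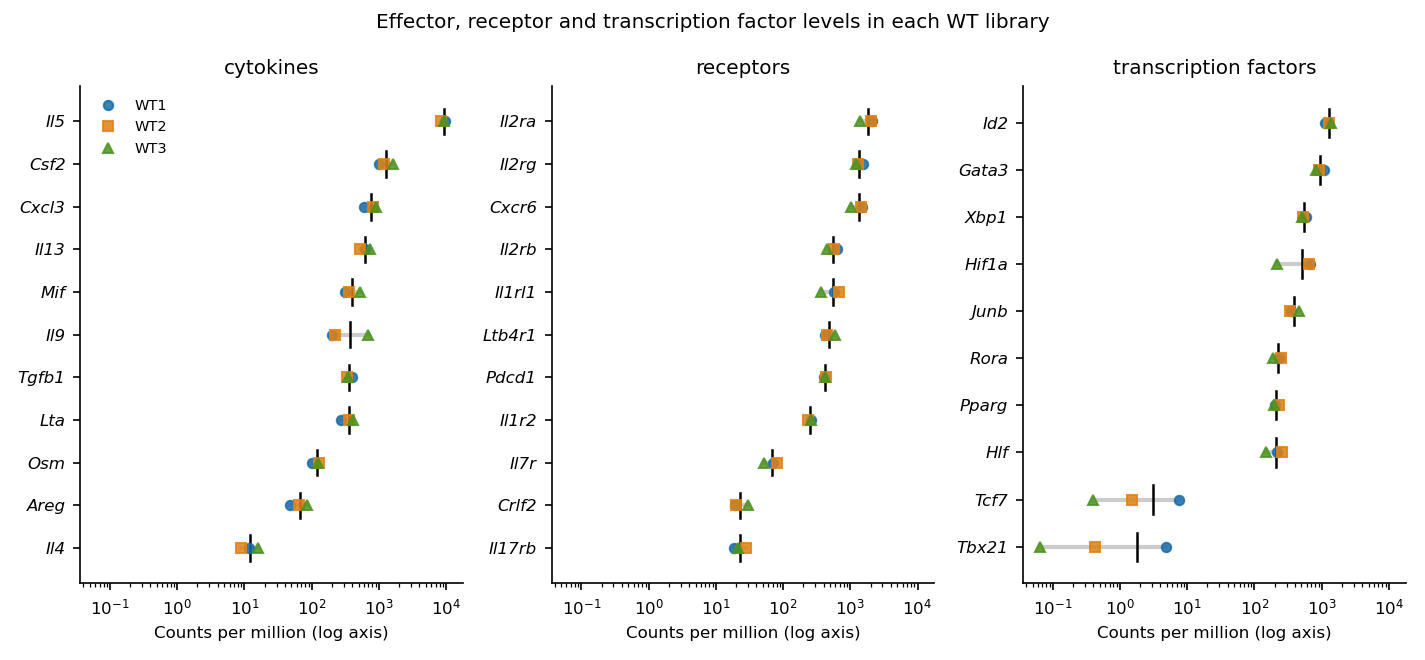
CPM (log axis) of cytokine, receptor and transcription factor genes in each WT library, with a circle, square and triangle for WT1, WT2 and WT3, a black tick for the mean and a grey line for the range. Il5 lies between 8498 and 9769 CPM, while Il9 and Hif1a are split between WT3 and the other two, and Tcf7 and Tbx21 span a wide range at low counts.

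Of 25 transcription factors of the ILC2 lineage, 24 were columns of the table. At least 1 CPM in each library was reached by 23 of them, against 64.8% of all genes, and a mean of at least 10 CPM by 21, against 48.8%. Id2, which restrains E proteins and is needed for every innate lymphoid cell, came first per kb at 644 ± 63.5, then Gata3 at 294 ± 39.4 and Ets1 at 68.7 ± 16.9, with no overlap of ranges. Cbfb (137 ± 31.1 CPM), the partner of the Runx factors, and Hlf (210 ± 55.4 CPM) followed. Rora, the nuclear receptor required for ILC2 development, had 224 ± 30.4 CPM, which is 20.6 ± 2.79 per kb of a long transcript. Gata3 exceeded it by 14.3 times per kb (log2 ratio 3.84 ± 0.19), or 9.01 times with the median transcript length. Bcl11b stood at 84.4 ± 11.1 CPM and Gfi1 at 29.6. Tcf7, which acts early in ILC development, was at 7.46, 1.502 and 0.392 CPM and was the lowest member of the list.

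Of 23 factors of other lineages, 16 were columns of the table and 2 had a mean of at least 10 CPM, against 48.8% of all genes. These were Zbtb7b (29.3 ± 1.90) and Lef1 (21.8 ± 6.91). The type 1 regulators Tbx21 and Eomes had 1.804 ± 2.702 and 3.44 ± 0.566 CPM. Most of the Tbx21 signal came from WT1, at 4.92 CPM against 0.429 and 0.0654. Cebpa and Cebpe, factors of myeloid cells, were at the floor.

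Of 60 activation factors, every one was a column and 47 had a mean of at least 10 CPM, against 48.8% of all genes. Xbp1, which drives the secretory programme, stood first per kb at 253 ± 16.9, followed by Junb (212 ± 36.1), Atf4 (141 ± 36.1) and Batf (135 ± 24.8). The ranges of Xbp1 and Junb overlapped, as did those of Atf4 and Batf. Hif1a, the oxygen-regulated factor, had 669, 657 and 213 CPM. WT3 was far below the others, and the transcript is long. Myc stood at 185 ± 13.3 CPM, Bhlhe40 at 202 ± 25.1 and Nfkb1 at 330 ± 14.9. Per kb, Stat6 (56.0 ± 18.6) and Stat3 (54.7 ± 11.2) led the STAT genes, in the reverse order with the median transcript length. Fos stood at 7.55 CPM and Egr1 at 25.4, and Fosb and Nr4a3 were at the floor. Pparg, a nuclear receptor of lipid uptake, led the 14 nuclear receptors in the table with 202, 233 and 199 CPM, 99.4 ± 9.01 per kb, and Nr1h2 followed at 52.5 ± 4.14 per kb.

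Glycolytic transcripts made up 1.82% ± 0.117 of all reads for the 10 enzymes from Hk1 to Pkm. Eno1, Ldha, Aldoa, Pkm and Gapdh were the first 5 of the list per kb, at 2219 ± 150, 1852 ± 124, 1815 ± 233, 1606 ± 114 and 1075 ± 221. The ranges of Ldha, Aldoa and Pkm overlapped from one to the next, while Eno1 stood above Ldha and Gapdh below Pkm. At several steps 1 gene held most of the transcripts. Ldha, the lactate dehydrogenase that favours lactate, took 99.5% ± 0.204 of the summed per kb level of Ldha and Ldhb. Eno1, Aldoa and Pgam1 took 99.8%, 99.9% and 99.9% of the members followed in their families. Hk1 took 82.7% ± 1.39 of the hexokinases and the inducible Hk2 16.4% ± 1.14, or 90.7% and 9.10% with the median transcript length. Pfkl took 62.7% ± 1.09 of phosphofructokinase. Of the glucose transporters followed, Slc2a1 held 54.96% ± 4.17, at 128 ± 15.4 CPM, and Slc2a3 held 6.60% ± 2.79, or 62.3% and 17.3% with the median transcript length. The lactate exporter Slc16a3 (184 ± 18.2 CPM) held 70.8% ± 5.39 of the summed per kb level of its family and Slc16a1 (77.2 ± 12.8 CPM) 29.2% ± 5.39, or 91.4% and 8.56% with the median transcript length, and Slc16a7 was at 0. Pdk3 held 80.6% ± 3.37 of the pyruvate dehydrogenase kinases.

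**Figure D4:**
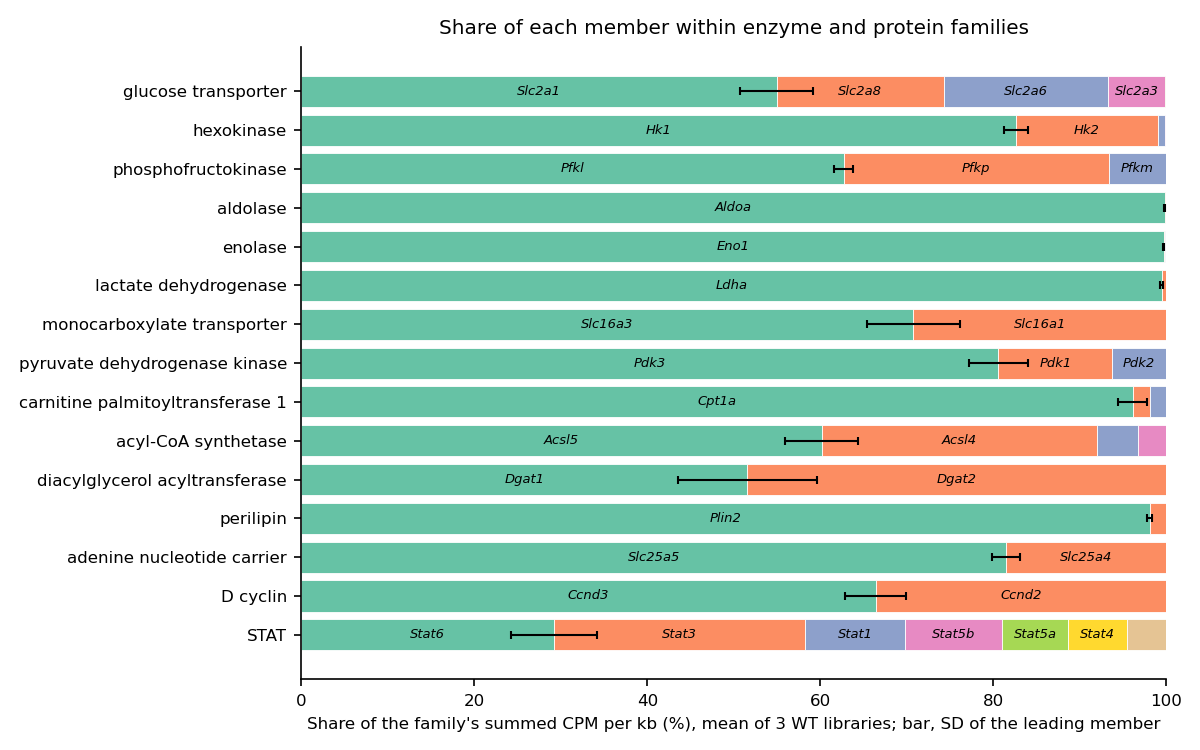
Share of each member in the summed CPM per kb of its family (%), as the mean of the 3 WT libraries for the members followed; black bars are the SD of the leading member. One member takes nearly the whole bar for aldolase, enolase, lactate dehydrogenase and perilipin, and Stat6 and Stat3 hold 29.2% and 29.1% of the STAT genes. With the median transcript length the lead passes to Dgat2 and to Stat3 in their families.

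With the median in place of the longest transcript length, 19 of 22 families kept their leading member. Among the other 3, the lead passed from Dgat1 to Dgat2, from Stat6 to Stat3 and from Sod1 to Sod2. The entry to the pentose phosphate pathway, G6pdx, had 674 ± 100 CPM and all 10 listed genes of the pathway had at least 1 CPM in each library, as 64.8% of all genes did. In pyruvate entry and the TCA cycle, 32 of 36 listed genes had a mean of at least 10 CPM, against 48.8% of all genes, led per kb by Mdh2 (373 ± 43.7), Sdhb (309 ± 24.8) and the pyruvate carrier subunit Mpc1 (291 ± 41.0), the last 2 with overlapping ranges. Citrate synthase Cs stood at 423, 440 and 413 CPM. Idh2 held 85.3% ± 10.0 of the 2 NADP-dependent isocitrate dehydrogenases. The mitochondrial genome's 13 protein genes took 0.720% ± 0.202 of reads, 0.488% in WT1, 0.836% in WT2 and 0.837% in WT3. mt-Co1 had 1460 ± 352 CPM. mt-Co3, mt-Atp6 and mt-Co2 share near-identical sequence with pseudogenes on chromosome 1, where 4 such pseudogenes took a further 0.307% ± 0.112, so these levels are uncertain. Of the nuclear respiratory genes followed, Slc25a5, an adenine nucleotide carrier, and Atp5b, the beta subunit of ATP synthase, led at 1019 ± 64.4 and 948 ± 76.6 CPM per kb.

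Of the 24 genes of arginine and polyamine metabolism in the table, 17 had a mean of at least 10 CPM and 10 of at least 100, levels that 48.8% and 13.3% of all genes reached. Odc1, which makes putrescine from ornithine, stood at 304 ± 34.9 CPM and spermidine synthase Srm at 318 ± 54.0. Spermidine is used to modify the translation factor Eif5a (2303 ± 255 CPM), and Dhps and Dohh, the enzymes of that modification, had 64.0 ± 10.1 and 79.5 ± 10.1 CPM. Of the 28 genes of amino acid transport and one-carbon metabolism in the table, 23 had a mean of at least 10 CPM and 16 of at least 100, against the same shares of all genes. The latter included the serine synthesis genes Phgdh (448 ± 71.6 CPM) and Psat1 (358 ± 12.3), Shmt2 (472 ± 11.4), the heavy chain Slc3a2 (627 ± 28.6), its partner Slc7a5 (404 ± 53.5) and the glutamine carrier Slc1a5 (559 ± 107). Nos2, the inducible nitric oxide synthase, and Ido1, a tryptophan-degrading enzyme, were at the floor.

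Lipid genes were headed by Plin2, which coats lipid droplets, at 1417, 1171 and 1338 CPM. It stood 6.28 times above the next member per kb, Acadl of beta-oxidation, whose range overlapped those of Acadvl and Elovl1. Dgat1 and Dgat2, which make triacylglycerol, had 128 ± 22.2 and 143 ± 21.1 CPM. Cpt1a, the gate for fatty acids into mitochondria, stood at 112 ± 34.7 CPM and held 96.1% ± 1.64 of the 3 genes of its family. In sterol synthesis and uptake 17 of 18 genes had a mean of at least 10 CPM, against 48.8% of all genes, led per kb by Fdps (74.6 ± 10.2). Iron and redox genes, beyond the ferritins, included Prdx1 (1505 ± 251 CPM), Txnrd1 (810 ± 215), Txn1 (659 ± 121) and Nqo1 (501 ± 55.9), and 19 of 20 had a mean of at least 10 CPM, against that same share of all genes. Ftl1 exceeded Fth1 by 5.89 times per kb (log2 ratio 2.56 ± 0.10), or 2.58 times with the median transcript length. The single gene under 10 CPM was Slc40a1, the iron exporter ferroportin, at 2.17 CPM. Of 14 genes of eicosanoid synthesis in the table, 5 had a mean of at least 10 CPM and 2 of at least 100, where 48.8% and 13.3% of all genes did. Ptges3, a prostaglandin E synthase that also serves as a chaperone partner, led with 319 ± 24.7 CPM, 159.5 ± 12.3 per kb. Lta4h, which makes leukotriene B4, had 174 ± 2.08 CPM and Alox5 43.1 ± 10.95, while Hpgds had 13.998 ± 1.77, Ptgs2 4.54 ± 0.490, and Ptgis and Hpgd were at 0.

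Of 34 genes of the cell cycle, 31 had a mean of at least 10 CPM and 28 of at least 100, where 48.8% and 13.3% of all genes did. Stmn1 (497 ± 50.3 CPM), the ribonucleotide reductase subunit Rrm2 (972 ± 178), Hmgb2 (841 ± 130), the cell cycle inhibitor Cdkn1a (607 ± 66.1) and Tubb5 (743 ± 76.8) led per kb with overlapping ranges. Mki67 stood at 215 CPM, Top2a at 300 and Pcna at 358 ± 40.6. Ccnd3 and Ccnd2 held 66.4% ± 3.54 and 33.6% ± 3.53 of the D cyclins, and Ccnd1 was at 0.135 CPM. Cdkn1b was low at 3.50 CPM. Among survival and death genes, the order per kb was Bax (388 ± 76.0), Casp8 (160 ± 10.0), Bcl2l1 (67.5 ± 7.15) and Mcl1 (38.6 ± 8.23), with no overlap of ranges. Xist had 68.3 ± 23.4 CPM, and none of the 4 Y-linked genes listed is a column of the table.

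Of 158 genes that mark other cells, 120 were columns of the table. Of these, 26 had a mean of at least 10 CPM and 6 of at least 100, where 48.8% and 13.3% of all genes did. At the floor were 19 of the 120, against 889 of all 17831 genes. The median of these marker genes was 1.48 CPM, where the median of all genes was 8.98 and that of the 6 ILC2 markers 788. In bulk RNA, fewer cells of a type and less RNA per cell cannot be told apart. The 6 above 100 CPM were Chil3 (527 ± 201), Lta (353 ± 70.9), Ighm (220 ± 101), Trbc2 (148 ± 24.6), Igkc (137 ± 56.7) and Cd74 (107 ± 33.4). Lta and Chil3 also stand in the cytokine and secreted product lists above, and Kit (91.8 ± 40.0 CPM) in both the mast cell list and the ILC2 list.

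Among 17 T cell genes, Trbc2 and Trbc1 (58.4 ± 11.3 CPM), near-identical constant genes of the T cell receptor beta chain, stood apart from the other chains. Trbc2 was at 136, 132 and 177 CPM, while Trac, the constant gene of the alpha chain, was at 1.33, 0.215 and 1.05. Cd3g (18.7 ± 2.23 CPM) and Cd247 (16.3 ± 1.77) stood above Cd3e and Cd3d, at 1.37 ± 1.02 and 0.463 ± 0.455, and Cd4 was at 0. The list summed to between 229 and 298 CPM. Of the B and plasma cell genes, Ighm had 272, 284 and 103 CPM and Igkc 178, 160 and 72.4, so WT3 was the lowest for both, and the list summed to 505, 504 and 245 CPM. Cd79b was at 24.4, 25.2 and 23.3 CPM, a smaller difference in the same direction.

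Several myeloid genes were highest in WT3. The macrophage and monocyte list summed to 501, 420 and 882 CPM in WT1, WT2 and WT3, with Chil3 at 454, 374 and 755 and Lyz2 at 21.2, 22.96 and 81.0, a mean of 41.7 that became 22.1 without WT3. Cd68 had 16.5 ± 8.59 CPM. Of the other defining macrophage genes, Adgre1 had 4.28, 1.07 and 7.38 CPM, Csf1r 6.53, 4.36 and 3.201, and Marco 0, 0 and 6.40, while C1qa, C1qb, C1qc and Fcgr1 were at 0 in every library. Adgre1 and Marco were highest in WT3 and Csf1r lowest there. Of members at lower levels, Cd14 and Ly6c2 were lowest in WT3, and Siglec1 and Mrc1 highest. The transcripts of Chil3, Lyz2 and Cd68 have 1539, 1316 and 1230 bases and that of Csf1r 4701. WT3 was high for short transcripts, and the part of length in these differences was not tested. Il9 was also highest in WT3, and whether other cells had a part in its level was not tested. The dendritic cell list, with Cd74, Ccr7 (49.8 ± 11.6 CPM), Xcr1 (49.1 ± 11.3) and H2-Ab1 (29.0 ± 12.5), summed to 226 to 346 CPM, and Flt3 was at 0. H2-Eb1 had 14.7 CPM, and 8.76 without WT3. Eosinophil genes summed to 5.60, 6.29 and 19.1 CPM, with Ear2 at 4.48 ± 4.15 (2.11 without WT3) and Epx and Siglecf at 0. The NK cell and ILC1 list summed to 29.4 to 64.4 CPM, and of the ILC3 list Lta alone passed 10 CPM, with Il22, Il1r1 and Cd4 at the floor.

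Mast cell proteases were detected at Cma1 15.7 ± 12.8 (8.36 without WT3) and Tpsb2 12.2 ± 2.43 CPM. Mcpt8 (6.31 ± 4.24), Tpsab1 (5.74 ± 3.58) and Cpa3 (5.52 ± 3.58) of the same list were lower but above 1 CPM in every library. Hdc had 0.507 CPM and Fcer1a 0.310, and the high-affinity IgE receptor chain Ms4a2 and Mcpt4 were at the floor. Neutrophil genes other than Mpo, listed at 0, 0 and 10.8 CPM, stayed under 2 CPM in every library, and Csf3r was at the floor. Erythroid and platelet genes were led by Hba-a1 (7.74 ± 1.90 CPM). Of 12 epithelial genes in the table, 3 had a mean of at least 10 CPM, against 48.8% of all genes: the club cell secretoglobin Scgb1a1 (39.9, 48.1 and 34.3 CPM), Epcam (13.4 ± 3.91) and Hopx (10.2 ± 6.44, and 6.58 without WT3). The other 9 were lower, with the surfactant genes Sftpc at 0.212 and Sftpb at 0.374 CPM, and the median of the list was 2.98 CPM. Pecam1 stood at 22.9 ± 6.11 CPM, with the endothelial genes Kdr and Vwf at the floor. Pdgfrb and Acta2 of mesenchymal cells were at 0.

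**Figure D5:**
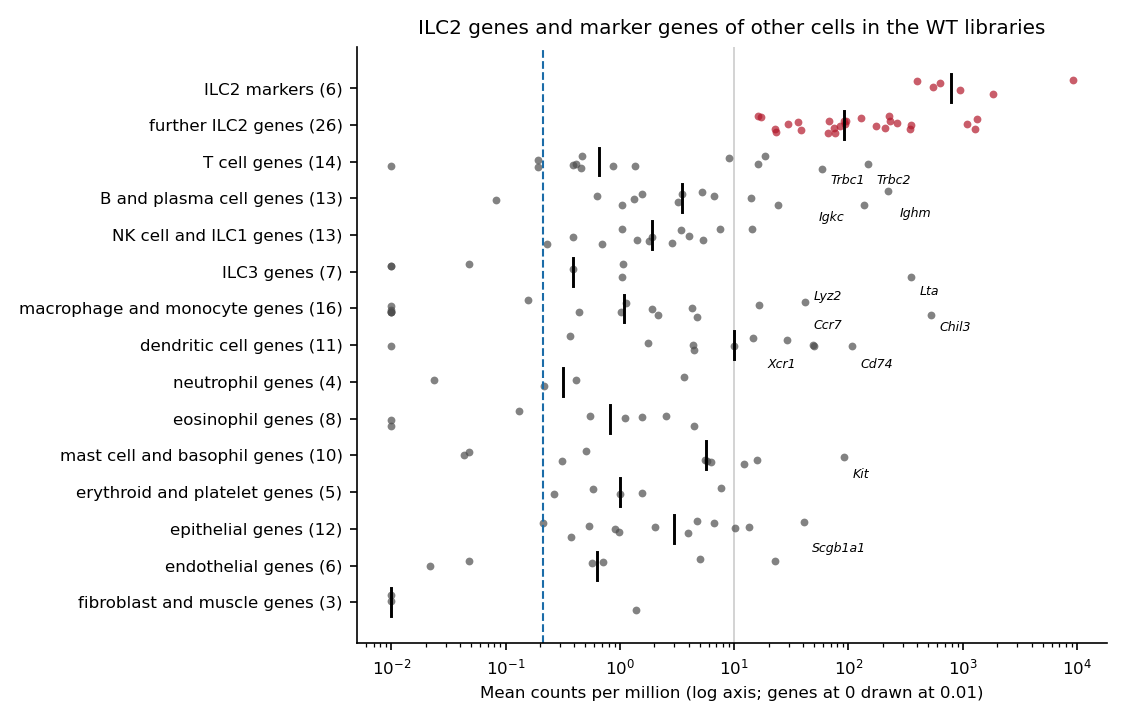
Mean CPM (log axis) of each member of the ILC2 lists (red) and of lists of marker genes of other cells (grey), with the number of members in the table in brackets and a black tick at the list's median. The dashed line marks 0.215 CPM, which is 3 reads in the smallest library, and the grey line 10 CPM; both ILC2 lists lie wholly above 10 CPM and most other lists mainly below it.

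The spread between libraries fell with the level of a gene. Among the 1279 genes with means from 1.001 to 2.01 CPM the median coefficient of variation was 54.5%, against 21.3% for counting error. Among the 1279 most abundant, from 169 CPM upwards, it was 14.6% against 1.501%. Of the 2368 genes at a mean of 100 CPM or more, 21 (0.887%) had a coefficient over 50%. Ybx3 (303, 34.2 and 89.8 CPM), Akt1 (492, 89.2 and 142) and Il9 were the first 3; Akt1 is a central kinase of cytokine signalling, and WT1 stood far above the others for it. Hif1a was also among the 21. Il5 (6.99%), Pdcd1 and Cyp11a1 lay below the median of 15.0% of these genes, and Ilf2, at 133, 134 and 134 CPM, varied least.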

How the data were processed

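Bulk RNAseq of sorted and cultured lung ILC2s was analysed from 3 WT libraries. The authors aligned reads to mm10 with STAR and counted them in Partek against GENCODE M21, and deposited estimated counts per gene with no scaling between libraries. The paper gives other versions than the submitters' processing notes, which name STAR 2.7.8 and Partek 10.0. Of a library's values, 71.4% to 73.2% were whole numbers (within 1e-09). The table holds 17831 genes and none with a total under 10 over all 6 libraries. The 1939 gene columns used by name were each mapped to their unit, and the other 15892 hold the same unit. The sources used here give neither the handling of reads shared between genes nor the use of strand.

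Each count was divided by the library's total over all genes to give CPM. Abundance ranks and counts of genes past a level are in CPM, which favours long transcripts. Ratios and orders between genes were taken as CPM per kb of the longest GENCODE M21 transcript, known for 17586 genes, with symbols matched directly for 17400 and through synonyms for 186. Neighbours in an order were taken to differ where the ranges of the 3 libraries did not overlap. The floor was 3 reads, to be met in all libraries. No group was compared with another and no p is given, since a sign-flip test over 3 libraries cannot go below 0.25. BLAST+ 2.17.0 was used to list near-identical copies of a transcript (95% identity or more across 50% or more of it). TMM factors came from edgeR 4.0.16 in R 4.3.3. Other steps used Python 3.11.15 with pandas 2.3.3, and figures used matplotlib 3.10.9. The code was tested on simulated counts.

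The members and the gene lists were chosen with earlier results of these data known. Genes named by rule are the 25 with the highest mean CPM, the 6 ILC2 markers, the 5 highest members per kb of each list and its members at the floor, and the 3 highest members of each list of other cells. Other genes named in the text were chosen after their values were seen, as were the lists of steroid synthesis, protein secretion, MHC class I, cytokine feedback and long noncoding RNAs. The alternatives were other scalings and totals, rounding, the median, libraries of one code averaged, leaving out each library, other detection limits and other transcript lengths. The SIRPa KO libraries were not compared here. Values of some genes of the lists, 1 of the ILC2 markers among them, are not reported here.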

Additional observations from a re-analysis of the deposited data

How the results depend on the processing

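The counts of genes and the main levels kept their values within the spread of the libraries, or within 1.5 times for counts, under every alternative scaling, total, average and library set, apart from the order of levels between genes. Of 1899 values of 211 named genes, 21 moved by 1 SD or more, all where the 10 most abundant genes were left out of the total, which raises every other level by construction. Another 49 moved by over 1.5 times within 1 SD, 10 of them for 6 genes at 10 CPM or more, where WT3 was left out or the median was taken. Of the first 50 genes by level per kb, 32 stayed among the first 50 with the median transcript length and 30 without division by length, so orders between genes depend on the length used. Leaving out each library in turn gave 11851 to 12021 detected genes in place of 11557, 8672 to 8685 genes at 10 CPM or more in place of 8697, 8897 to 9533 CPM for Il5 in place of 9188 and 21 to 27 marker genes of other cells at 10 CPM or more in place of 26, with 21 without WT3. Detection at 0.5 CPM, 2 CPM or 10 reads in each library, or at 1 CPM in any library, gave 12456, 10548, 12138 and 13987 genes. No paired analysis was possible because 1 group was described and no groups were compared. Depth limits single genes to about 0.215 CPM, and 3 libraries, which may stem from 2 samples, limit the SDs.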

Other observations

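Among genes outside the lists above, Cyp11a1, the mitochondrial enzyme that cuts the side chain of cholesterol to give pregnenolone, ranked 34 of 17831 genes at 1659, 1615 and 1538 CPM, a mean of 1604 ± 61.0. Its electron donors Fdx1 and Fdxr had 49.9 ± 10.5 and 26.1 ± 3.61 CPM, and Tspo, a cholesterol-binding protein of the outer mitochondrial membrane, 475 ± 71.3. Star, which delivers cholesterol to the enzyme in steroid-forming glands, was listed at 1.79, 4.94 and 0 CPM. Of the 14 genes of steroid synthesis followed, 8 are columns of the table and 5 had a mean of at least 10 CPM, against 48.8% of all genes. The other 6, not analysed here, are Cyp17a1, Cyp11b1, Nr5a1 and 3 Hsd3b genes.

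All 32 genes of the secretory pathway followed had a mean of at least 10 CPM and 30 passed 100, levels reached by 48.8% and 13.3% of all genes. Furin (584 ± 152) and Ero1l (578 ± 117) led per kb, then Pdia3 (481 ± 47.6), each range overlapping the next, and below them the chaperone Calr (408 ± 16.7). The list summed to 23463, 22441 and 19570 CPM in WT1, WT2 and WT3. All 15 MHC class I and peptide-loading genes passed 10 CPM, as 48.8% of all genes did, with B2m (2952 ± 202 per kb) above H2-D1 (2510 ± 195). Among inhibitors of cytokine signalling, Socs1 stood at 459 ± 101 CPM and Cish at 622 ± 71.8. Of long noncoding RNAs, AW112010 (387 ± 94.4 CPM) and Malat1 (1506 ± 359) were the highest per kb.

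A ribosomal RNA gene, CT010467.1, was at 378, 818 and 1366 CPM in WT1, WT2 and WT3, and Lars2, a mitochondrial leucyl-tRNA synthetase, at 1185, 1486 and 2563 CPM.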
